A study of Mus musculus with 5 samples.

Results

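The 10 genes described here encode factors of blood coagulation and fibrinolysis. They were chosen by name, with earlier results of these data known. All 10 were measured, by 13 probe sets that the array annotation pairs with exactly 1 of them. There were 12393 genes and 22626 probe sets in all. For Kng1 and F10 the probe set with the highest mean signal over the 5 arrays stands for the gene, and the other 8 genes had 1 probe set each. Clotting turns soluble fibrinogen into fibrin, and fibrinolysis removes the fibrin again. Tissue factor (F3) on cells outside the blood starts the cascade, factor X (F10) activates prothrombin (F2), and thrombin cleaves fibrinogen. Protein C (Proc) restrains the cascade, kininogen (Kng1) belongs to the contact system, and plasminogen (Plg) is turned into the fibrin-cutting enzyme plasmin by tissue plasminogen activator (Plat). The fibrinogen chains, kininogen, prothrombin, factor X, protein C and plasminogen are plasma proteins known to be made mainly by hepatocytes, whereas tissue factor and tissue plasminogen activator are made by cells within tissues, among them epithelium and endothelium.

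The signals come from a dilution of RNA from the adult colon into RNA from the whole newborn mouse. Both pools were of the C57BL/6 strain with no other allele or agent named, one from the colon of animals aged 8 weeks and the other from entire pups aged 1 day, and each pooled multiple animals. Colon made up 0%, 25%, 50%, 75% or 100% of the RNA, and 10 ng of each mix was amplified by a double T7 protocol and put on 1 Affymetrix array, so there were 5 arrays and no replicate of any mix. Values below are the authors' log2 signals, given in that order where 5 stand together, and a gene "fell" or "rose" where its slope on the colon share passed an adjusted p of 0.05 (limma, over all probe sets). The pools differ in tissue and in age, which cannot be told apart. In such pooled bulk RNA, fewer cells of a type and less RNA per cell cannot be told apart either.

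The low end of the scale was read from 27 probe sets for poly-A spike controls, which target bacterial and not mouse transcripts. On the colon array they ran from 2.72 to 5.21 with a median of 3.43, and on the other 4 arrays their highest value lay between 4.81 and 5.23. Of all probe sets, 20.8% lay at or below the highest spike control on the colon array. Array medians lay between 6.83 and 6.92. Markers of hepatocytes and of colon epithelium were also read. Of 11 hepatocyte genes 7 fell and none rose (14.5% of all genes fell and 9.8% rose). Their summed intensity was 16.15, 15.93, 15.40, 14.67 and 10.99 on the log2 scale, and none lay within the spike range in colon. Of 7 genes of colon epithelium 2 rose and none fell, with summed log2 intensities of 11.81, 15.03, 15.30, 15.37 and 15.54. In whole mouse only Slc26a3 of the 7 lay within the spike range. The brightest genes of these lists, albumin (Alb, adjusted p = 0.136) and the lectin Lgals4 (adjusted p = 0.129), did not pass the limma test themselves.

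The 5′ flanks of the 3 fibrinogen genes and of tissue factor are shown because the signals of the fibrinogen chains were lower in colon whereas the tissue factor signal was higher in colon. RefSeq promoters (GRCm38.p6, 250 bases before to 50 after the annotated start) were at hand for 6 of the 10 genes. Capitals mark the motifs searched on both strands: the half-site GTTAAT of the liver factor HNF1, the element CTGGGAA known from interleukin-6-responsive fibrinogen genes of the rat, the Sp1 site GGGCGG and the AP-1 site TGAGTCA. Overlaps between motifs were allowed, and none occurred in the 4 sequences shown.
Fga promoter, chr3:83025903-83026202, plus strand: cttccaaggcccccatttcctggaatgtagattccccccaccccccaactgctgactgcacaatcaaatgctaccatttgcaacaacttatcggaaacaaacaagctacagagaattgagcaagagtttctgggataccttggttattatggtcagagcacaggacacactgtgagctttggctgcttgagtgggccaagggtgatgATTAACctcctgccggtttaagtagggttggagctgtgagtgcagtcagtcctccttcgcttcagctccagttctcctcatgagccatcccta
Fgb promoter, chr3:83049814-83050113, minus strand: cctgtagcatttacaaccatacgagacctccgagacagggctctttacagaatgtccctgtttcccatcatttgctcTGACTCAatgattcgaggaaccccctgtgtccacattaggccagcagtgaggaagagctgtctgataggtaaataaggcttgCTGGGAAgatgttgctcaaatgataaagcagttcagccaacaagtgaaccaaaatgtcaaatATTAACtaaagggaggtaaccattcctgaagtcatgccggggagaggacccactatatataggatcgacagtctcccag
Fgg promoter, chr3:83007474-83007773, plus strand: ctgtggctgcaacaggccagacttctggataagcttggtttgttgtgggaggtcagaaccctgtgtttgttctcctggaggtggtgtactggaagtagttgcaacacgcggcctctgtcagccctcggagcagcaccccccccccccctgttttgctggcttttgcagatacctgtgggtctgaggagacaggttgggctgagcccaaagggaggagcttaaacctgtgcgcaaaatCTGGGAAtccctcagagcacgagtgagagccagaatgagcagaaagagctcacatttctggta
F3 promoter, chr3:121723287-121723586, plus strand: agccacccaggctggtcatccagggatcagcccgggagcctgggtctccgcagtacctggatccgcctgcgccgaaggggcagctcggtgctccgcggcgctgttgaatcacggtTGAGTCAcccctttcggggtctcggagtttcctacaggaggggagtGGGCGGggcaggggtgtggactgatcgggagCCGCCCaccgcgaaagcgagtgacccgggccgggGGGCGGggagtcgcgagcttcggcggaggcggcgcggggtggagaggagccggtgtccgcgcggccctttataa

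The HNF1 half-site stood 43 to 38 bases before the start in Fga and 29 to 24 bases before it in Fgb, on the minus strand relative to the gene in both. It was also found in F2, at bases 9 to 14 counting the start as 1, and in neither Fgg, F3 nor F10. Of all 32851 promoters of the same length, 7.1% held it. The CTGGGAA element occurred in Fgb (91 to 85 bases before the start) and Fgg (13 to 7 bases before it), and in 11.1% of all promoters. Sp1 sites occurred 3 times in F3 and in none of the other 5 promoters, against 35.7% of all promoters. The AP-1 site was in F3 (135 to 129 bases before the start) and in Fgb (173 to 167 bases before it), and in 5.2% of all promoters. These matches describe letters in the window only and say nothing of binding. In the RefSeq gene order Fgg, Fga and Fgb are direct neighbours on chromosome 3.

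Of the 10 genes 8 (all but F3 and Plat) were lower at each step of rising colon share. How many of all genes were lower at each step was not counted. The same 8 were at least 8-fold lower in colon than in whole mouse, and among all genes 2.19% were that much lower. The limma test called 5 of the 10 as falling (Fga, Kng1, F2, F10 and Proc) and none as rising, where 14.5% of all genes fell and 9.8% rose. The other 5 had adjusted p-values between 0.0505 and 0.0677. Because the 10 genes were chosen with earlier results of these data known, the shares of all genes serve as background only. The median fitted difference over the 10 genes was −5.15 log2, and over all 12393 genes −0.01; without the colon array these medians were −2.76 and −0.09. With linear intensities in place of log2 signals, and a prior variance following mean signal, 8 genes fell and F3 rose, and Plat alone did not pass. In that fit 11.2% of all probe sets fell and 11.2% rose. Subtracting array medians, leaving out probe sets of low signal and averaging the probe sets of a gene also gave 8 falling and F3 rising. The count of 5 became 2 without whole mouse, the 25% mix or the 50% mix, 3 without the 75% mix and 6 without colon. Of all probe sets 6.59%, 13.3%, 8.48%, 6.03% and 4.41% passed in these fits, in that order, against 19.5% with all arrays. In the plot of signals by mix, the step between the 75% mix and colon is the largest for each of these 8 genes.

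**Figure D1:**
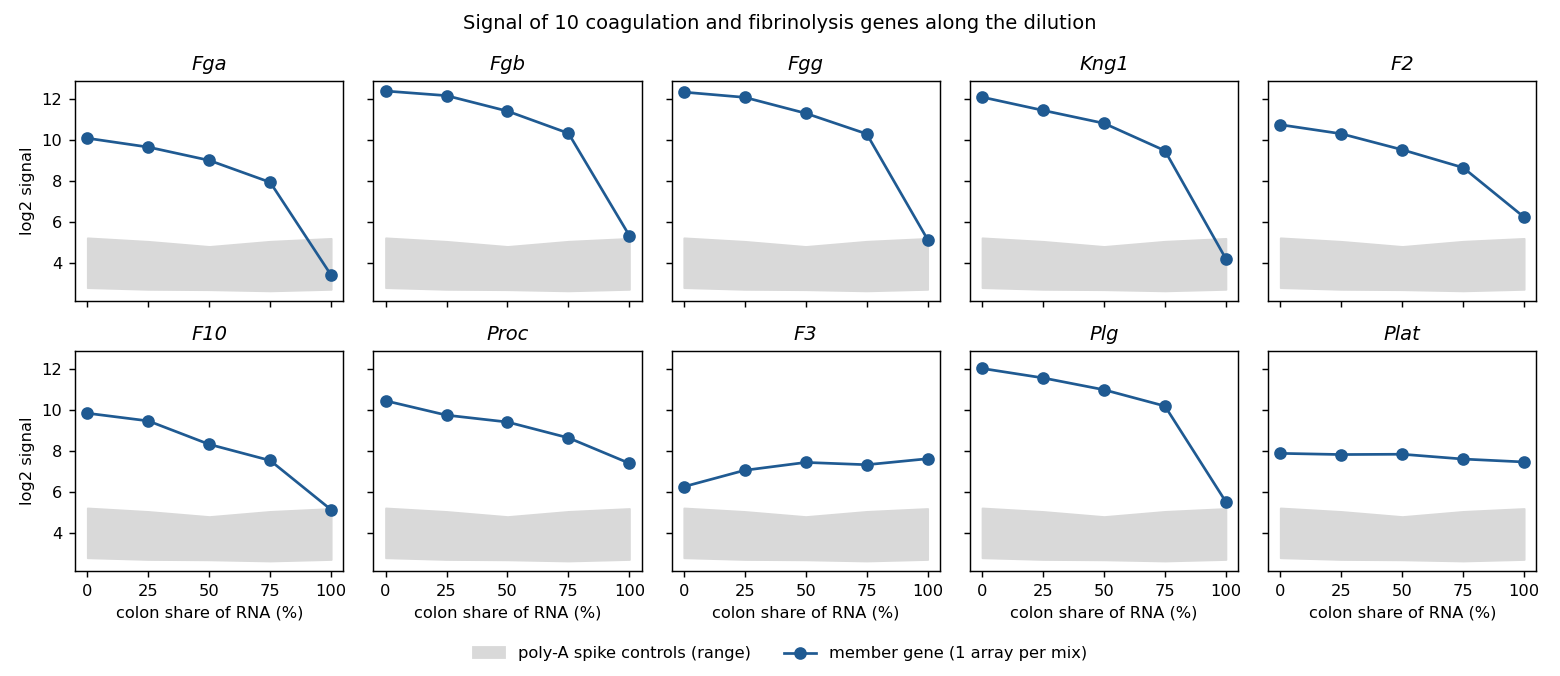
Log2 signal (vertical) of each of the 10 genes against the colon share of RNA in percent (horizontal); each point is 1 array and the grey band spans the 27 poly-A spike control probe sets on that array. In all, 8 genes are lower at every step and 4 of them (Fga, Fgg, Kng1 and F10) end inside the band on the colon array, while F3 is lowest and Plat highest in whole mouse.

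The 3 fibrinogen chains were each lower at every step of rising colon share. Fibrinogen alpha (Fga), whose amino-terminal peptide thrombin removes, had signals of 10.09, 9.66, 9.01, 7.94 and 3.41. Fibrinogen beta (Fgb), the chain that releases the second fibrinopeptide, had 12.39, 12.17, 11.41, 10.33 and 5.34. Fibrinogen gamma (Fgg), which carries binding sites for platelets, had 12.34, 12.08, 11.31, 10.30 and 5.15. Each chain was thus highest in whole mouse and kept a signal well above the spike range in the 75% mix, by 2.88 log2 for Fga, 5.27 for Fgb and 5.24 for Fgg. In colon Fga was near the median spike control and at the 3.12 percentile of all probe sets, and Fgg lay 0.06 log2 under the highest spike control. Fgb lay 0.13 log2 above that control, at the 23.0 percentile, so the colon level of the 3 chains was near the floor and the size of the difference is inexact.

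Between the undiluted arrays the chains differed by −6.68 log2 for Fga, −7.05 for Fgb and −7.19 for Fgg, colon minus whole mouse. Fga fell by a fitted 6.03 log2 (SE 1.45, limma adjusted p = 0.0478). The fitted differences of Fgb (−6.38, SE 1.64, limma adjusted p = 0.0554) and Fgg (−6.47, SE 1.68, limma adjusted p = 0.0569) were of like size and did not pass. Any curvature of the log2 profile counts as residual spread in this fit. Without the colon array the fitted slopes were −2.84 for Fga (adjusted p = 0.0418), −2.77 for Fgb (0.0587) and −2.75 for Fgg (0.0519). Fga did not pass when any of the other 4 arrays was left out, with limma adjusted p-values of 0.0988 without whole mouse, 0.116 without the 25% mix, 0.0960 without the 50% mix and 0.0753 without the 75% mix.

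Hepatocyte markers were also lower in colon, their summed intensity being 10.99 log2 in colon and 16.15 in whole mouse, and their part in the result was not tested. By the root mean square distance between profiles over the 5 arrays, each set relative to its own whole mouse signal, Fgg was the gene nearest to Fgb of 12392 others (0.07 log2). The next were Myh1, a skeletal muscle myosin (0.12), Ahsg, the liver plasma protein fetuin-A (0.13), Serpina1b, a liver antitrypsin (0.13), and Krtdap, a gene of the epidermis (0.15). Fga was the sixth (0.20) and Plg came at place 13 (0.29). On the colon array Fgg, Fga, Myh1 and Krtdap lay within the spike range, so these distances rest in part on values at the floor and their order is inexact.

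Kng1 had the largest undiluted difference of the 10 genes. Kininogen is the precursor of bradykinin and circulates with the contact factors. Its brightest probe set, 1416676_at, gave signals of 12.10, 11.45, 10.82, 9.48 and 4.21. The colon value stood inside the spike range, at the 9.17 percentile, and the undiluted difference was −7.89 log2. Kng1 fell by a fitted 7.10 log2 (SE 1.68, limma adjusted p = 0.0464). Without the colon array the slope was −3.39 (adjusted p = 0.0412), and it did not pass without whole mouse (adjusted p = 0.101), the 25% mix (0.112), the 50% mix (0.0923) or the 75% mix (0.0747).

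A second Kng1 probe set, 1426045_at, fell by 2.75 log2 (SE 0.35, limma adjusted p = 0.0115), with signals of 8.40, 8.31, 7.49, 6.90 and 5.67. It shared the direction but not the size, and its colon value was above the spike range. Kng1 stands beside its close copy Kng2 on chromosome 16, and no probe set was annotated to Kng2 alone, so which of the 2 genes these probe sets detect is uncertain. The mean of both Kng1 probe sets gave −4.92 log2 (limma adjusted p = 0.0209).

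The vitamin K-dependent proteases F2, F10 and Proc all fell. Prothrombin (F2), the precursor of thrombin, had 10.75, 10.31, 9.53, 8.66 and 6.24. It fell by 4.27 log2 (SE 0.67, limma adjusted p = 0.0184), and its undiluted difference of −4.51 log2 was a 22.8-fold lower signal in colon. Its colon signal lay 1.03 log2 above the highest spike control. Without the colon array the slope of F2 was −2.82 (adjusted p = 0.0340). F2 lost its call without whole mouse, the 25% mix or the 50% mix, at limma adjusted p-values of up to 0.0558.

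Factor X (F10), which forms the complex that activates prothrombin, had 9.85, 9.48, 8.34, 7.55 and 5.14 in its brightest probe set, 1449305_at. It fell by 4.54 log2 (SE 0.63, limma adjusted p = 0.0137), with a colon value just inside the spike range, 0.06 log2 under its upper end. The probe set 1418993_s_at had 7.63, 7.47, 6.99, 6.70 and 5.85 and fell by 1.74 log2 (SE 0.22, limma adjusted p = 0.0115). The probe set 1418992_at had 5.99, 6.12, 5.19, 4.12 and 3.89 and fell by 2.48 log2 (SE 0.38, limma adjusted p = 0.0170), its values in the 75% mix and in colon being within the spike range. All 3 F10 probe sets thus passed in the same direction, with fitted differences from −4.54 to −1.74 log2.

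**Figure D2:**
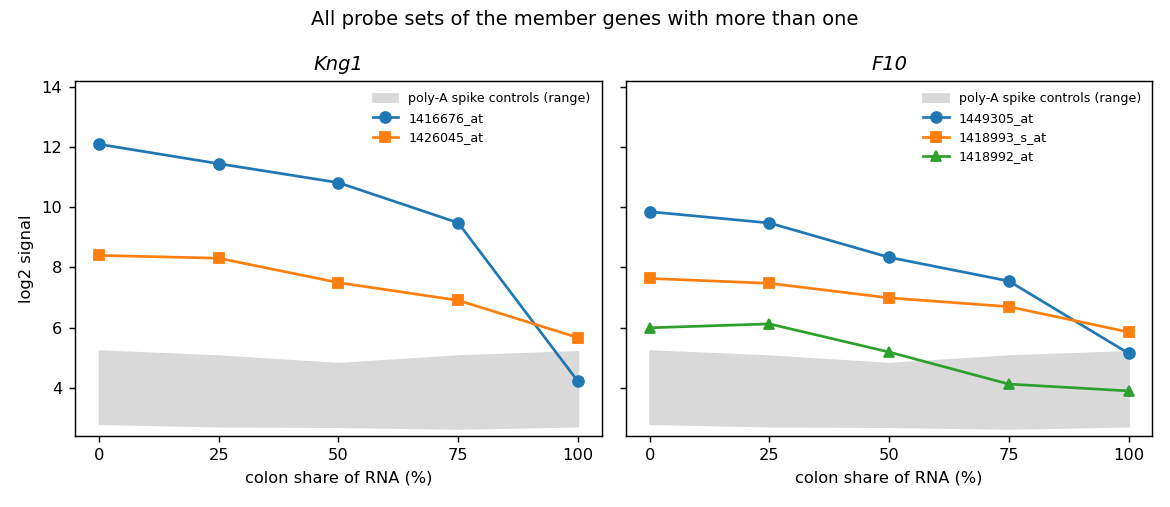
Log2 signal (vertical) of every probe set of Kng1 (left) and F10 (right) against the colon share of RNA in percent (horizontal), 1 array per point, with the range of the 27 spike controls in grey. The brightest probe set of each gene has the largest difference, and each other probe set is also lower in colon than in whole mouse.

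Protein C (Proc), the zymogen of an anticoagulant protease, had 10.46, 9.76, 9.42, 8.65 and 7.41. It fell by 2.88 log2 (SE 0.29, limma adjusted p = 0.00743). The colon signal of Proc stood 2.20 log2 above the highest spike control and at the 60.1 percentile of all probe sets, unlike those of the fibrinogen chains. Its undiluted difference was an 8.28-fold lower signal in colon, just past the 8-fold size counted above. Proc and F10 passed the limma test in each of the 5 fits that left out 1 array, at adjusted p-values from 0.0299 to 0.0483 for Proc and from 0.0377 to 0.0479 for F10. How many of all genes did so was not counted.

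Tissue factor (F3), the membrane receptor that binds factor VII, was the only one of the 10 with a higher signal in colon. It had 6.27, 7.07, 7.45, 7.34 and 7.63. Whole mouse was the lowest array and colon the highest, and the 50% and 75% mixes were out of order. The undiluted difference was 1.36 log2, a 2.57-fold higher signal in colon, as for the 9.26% of all genes that were at least 2-fold higher there. The fitted difference of 1.20 log2 (95% interval 0.44 to 1.96) had a limma adjusted p of 0.0505 and did not pass. It was 0.63 log2 without the whole mouse array (adjusted p = 0.166). Summed intensities of colon epithelium markers were 15.54 log2 in colon and 11.81 in whole mouse, and those of smooth muscle markers 14.63 and 13.04. Their part in the F3 values was not tested.

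Plasminogen (Plg), the zymogen of plasmin, had 12.04, 11.58, 10.998, 10.20 and 5.53. Its colon value was 0.32 log2 above the highest spike control and at the 26.1 percentile. The undiluted difference was −6.51 log2, and the fitted difference of −5.75 (SE 1.50) had a limma adjusted p of 0.0568. Without the colon array the slope was −2.43 and passed (adjusted p = 0.0332), and without any other array it did not.

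Tissue plasminogen activator (Plat) had the narrowest range of the 10, with 7.90, 7.84, 7.85, 7.62 and 7.48. All 5 values lay at least 2.27 log2 above the highest spike control of their array. The fitted difference was −0.42 log2 (95% interval −0.73 to −0.12, limma adjusted p = 0.0677), so a change of up to 0.73 log2 is within the interval. The summed intensity of 6 endothelial markers was 9.37 log2 in colon and 10.21 in whole mouse. Of these genes, 3 fell and none rose (14.5% of all genes fell and 9.8% rose), among them the receptor Kdr (−0.77, limma adjusted p = 0.0187). Their part in the Plat values was not tested.

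**Figure D3:**
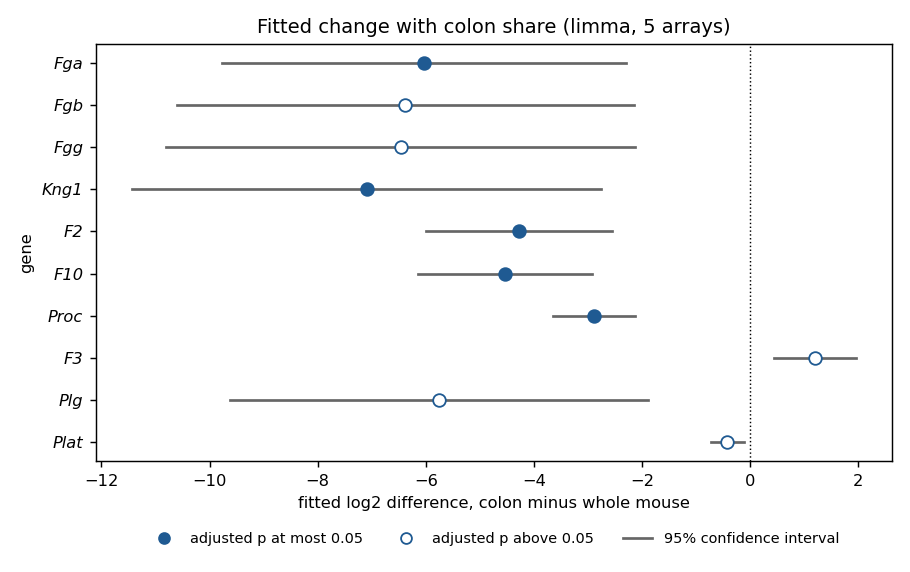
Fitted log2 difference between colon and whole mouse (horizontal, colon minus whole mouse, limma over 5 arrays) for each of the 10 genes (vertical); lines are 95% confidence intervals and filled points passed an adjusted p of 0.05. The steep genes have the widest intervals (Kng1, −11.43 to −2.76), and F3 is the one gene to the right of 0.

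The mixtures were then set against the dilution itself. The log2 of the whole mouse share is −0.42, −1 and −2 at 25%, 50% and 75% colon. A transcript found only in whole mouse would follow it if signal were proportional to RNA amount. Relative to the whole mouse array, Fga stood at −0.43, −1.08 and −2.15 log2, Fgb at −0.22, −0.98 and −2.06, and Fgg at −0.26, −1.03 and −2.04. Kng1 stood at −0.65, −1.28 and −2.61, and Plg at −0.46, −1.04 and −1.84. Fgb and Fgg were thus above the log2 whole mouse share at 25% colon and close to it at 50% and 75%. Fga, Kng1 and F2 (−0.44, −1.22 and −2.09) were below it at all 3 mixes. F10 stood at −0.37, −1.52 and −2.31, and Proc at −0.70, −1.04 and −1.81.

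Over the 4 arrays with whole mouse RNA, the slope of log2 signal on the log2 whole mouse share would be 1 for such a transcript. Among the 11 hepatocyte markers the slope ran from 0.39 (Alb) to 1.19 (Apoa2). What lay behind departures from 1 was not tested. The slope was 1.08 for Fga (SE 0.01), 1.07 for Fgb (SE 0.07), 1.05 for Fgg (SE 0.07), 1.06 for F2 (SE 0.07) and 0.91 for Plg (SE 0.05). F10 had 1.20 (SE 0.16), Kng1 1.28 (SE 0.05) and Proc 0.85 (SE 0.12). The median over all 362 probe sets at least 8-fold lower in colon was 0.99, with quartiles of 0.88 and 1.08. Kng1 and F10 lay above the upper quartile and Proc below the lower one. A slope of 1 applies only to a transcript absent from colon, and the colon signal of Proc lay 2.20 log2 above the highest spike control. The slope of Plat was 0.13 (SE 0.04), and that of F3 −0.47 (SE 0.29).

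Each mixture was also set against the weighted mean of both undiluted intensities. For all probe sets the standard deviation of the log2 deviation was 0.25, 0.23 and 0.18 at 25%, 50% and 75% colon. Kng1 deviated by −0.23, −0.28 and −0.63 log2, F10 by 0.02, −0.57 and −0.46, and F3 by 0.32, 0.35 and −0.05. Proc deviated by −0.34, −0.20 and −0.25, and F2 by −0.05, −0.28 and −0.27, so both were below the weighted mean at all 3 mixes. Plg deviated by −0.05, −0.06 and 0.12, and Plat by 0.04, 0.15 and 0.03. The fibrinogen chains stayed between −0.19 and 0.19 at all 3 mixes. Among probe sets at least 8-fold lower in colon the median deviation was −0.09, −0.21 and −0.21, so mixes below the weighted mean were usual for such genes.

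**Figure D4:**
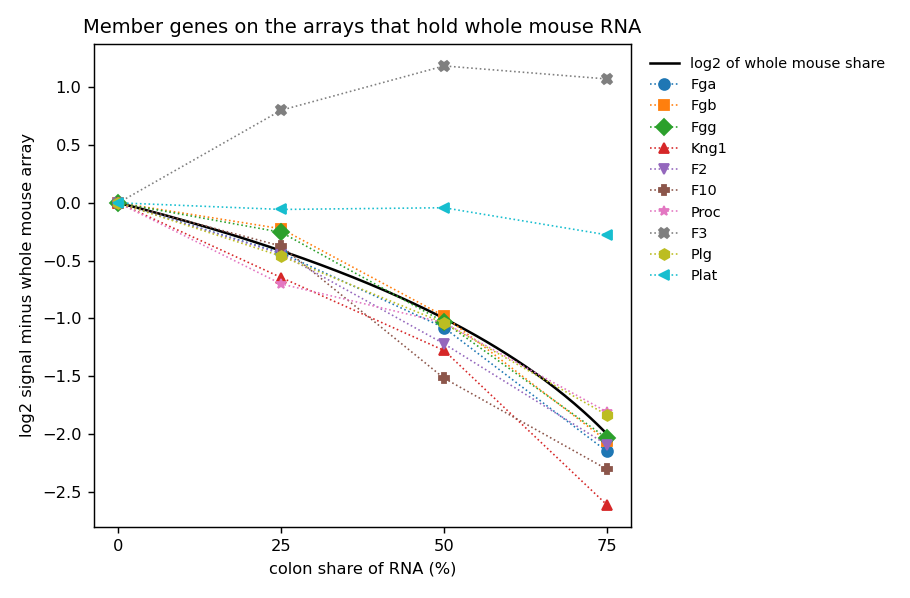
Log2 signal minus the signal on the whole mouse array (vertical) for the 10 genes on the 4 arrays that hold whole mouse RNA, against the colon share in percent (horizontal); the black line is the log2 of the whole mouse share. The fibrinogen chains and Plg run along the line, Kng1 and F10 end below it at −2.61 and −2.31, and F3 and Plat lie above it.

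Of 39 other measured genes of clotting, its restraint, fibrinolysis and platelets, 21 fell and 1 rose. Of all genes 14.5% fell and 9.8% rose. The median fitted difference over the 39 genes was −0.66 log2 (−0.01 over all genes). Their lists were also chosen with earlier results of these data known. Among 12 clotting factors 10 fell and none rose (median −0.95). They were led by F13b, the carrier subunit of the fibrin-crosslinking factor XIII (−3.13, limma adjusted p = 0.00904), the contact factor F12 (−2.97) and prekallikrein, Klkb1 (−1.68). F12 had 8.50, 7.85, 7.15, 6.26 and 5.59, and F13b 7.63, 7.65, 6.47, 5.71 and 4.70. Ggcx, the vitamin K-dependent carboxylase, had a fitted difference of 0.43 log2 (adjusted p = 0.109). Colon signals of F5, F9, F13b and Klkb1 lay within the spike range.

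Of 9 anticoagulant genes 4 fell and none rose (median −0.58), where 14.5% of all genes fell and 9.8% rose. That median was the slope of Proz, whose other probe set had −2.64, and the probe sets of Tfpi ran from −0.45 to 0.54. Serpina5 lay within the spike range on both undiluted arrays. Antithrombin (Serpinc1) had 11.43, 11.05, 10.43, 9.34 and 5.99 and fell by 5.03 log2 (SE 1.05, limma adjusted p = 0.0344), a slope that was −2.75 without the colon array (adjusted p = 0.0489). Serpina10, an inhibitor of factor Xa (−1.996 log2), and heparin cofactor II (Serpind1, −1.85) also fell. The endothelial protein C receptor Procr lay between 7.68 and 8.23 (fitted 0.35, adjusted p = 0.291).

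Of 7 fibrinolysis genes 3 fell and 1 rose, where 14.5% of all genes fell and 9.8% rose. The gene that rose passed in none of the 5 fits that left out 1 array. The median over the 7 genes was −0.11, but 0.11 without whole mouse and −0.39 without colon. The plasmin inhibitor Serpinf2 fell by 2.74 log2, with 10.15, 9.80, 9.14, 8.53 and 7.35. Hrg, a plasminogen-binding plasma protein, fell by 2.63, and Serpinb2, an inhibitor of plasminogen activators that lay within the spike range on both undiluted arrays, by 1.42. The annexin Anxa2, a cell-surface receptor for plasminogen and its activator, lay between 12.63 and 12.73 (adjusted p = 0.555). Its partner S100a10, named after its values were seen as the only gene that rose, had 10.88, 10.83, 11.22, 11.43 and 11.43 (fitted 0.68, limma adjusted p = 0.0395).

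Of 11 genes of platelets and thrombin receptors 4 fell and none rose, where 14.5% of all genes fell and 9.8% rose. The median over the 11 genes was −0.44, but −0.17 without whole mouse and −0.67 without colon. P2ry12 lay within the spike range on both undiluted arrays. The platelet chemokine Ppbp (−2.54 log2), platelet factor 4 (Pf4, −1.83) and the adhesion receptor chain Gp1bb (−1.61) fell, although the other probe set of Gp1bb had a slope of 0.05. The thrombin receptor F2r lay between 8.44 and 8.91 (adjusted p = 0.518). Of the 22 calls in the 4 lists, 7 (F11, F12, Serpind1, Serpina10, Serpinf2, Hrg and Ppbp) also passed in each of the 5 fits that left out 1 array. How many of the calls over all genes did so was not counted. The count of 22 was 12 without whole mouse, 17 without the 25% mix, 14 without the 50% mix, 12 without the 75% mix and 8 without colon. Of all probe sets 6.59%, 13.3%, 8.48%, 6.03% and 4.41% passed in these fits, in that order, against 19.5% with all arrays. Among the other genes named, F13b lost its call without colon (limma adjusted p = 0.0772), Pf4 without the 75% mix or colon, and Gp1bb without whole mouse or colon. Klkb1 lost it without whole mouse, the 75% mix or colon, Serpinc1 without any array but colon, Serpinb2 without any but the 25% mix, and S100a10 without any array.

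**Figure D5:**
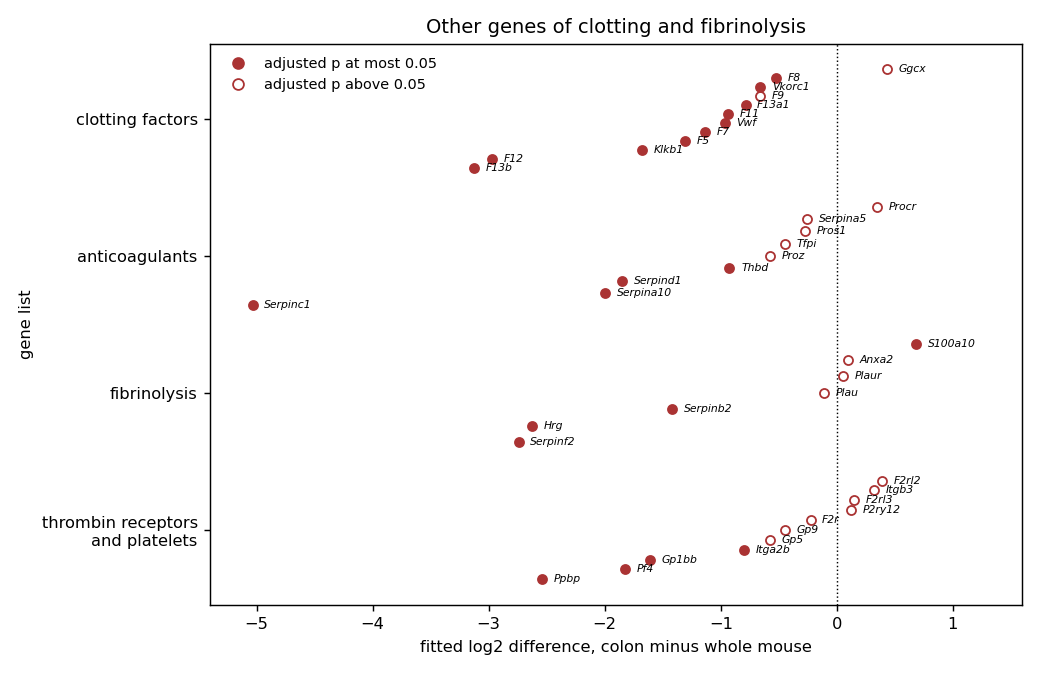
Fitted log2 difference between colon and whole mouse (horizontal, colon minus whole mouse) for 39 other genes in 4 lists (vertical, genes of a list spread for legibility); filled points passed an adjusted p of 0.05 (limma). Over all 5 arrays Serpinc1 has the largest fall at −5.03 (−2.75 without the colon array, where F12 at −2.97 and F13b at −2.78 are larger), and S100a10 is the 1 filled point above 0.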

How the data were processed

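Log2 signals of 5 Affymetrix mouse arrays, 1 per mix, were analysed. The authors deposited log2 values made with RMA per the submitters' processing notes, a method of background correction, quantile normalization and median polish (version not given in the sources used here). Samples were grouped by the colon share in their labels. Control probe sets (64) were set aside. The array annotation gave 1 gene for 20380 of the other probe sets, several genes for 691 and no gene for 1555; symbols were updated by gene identifier through RefSeq (20351 matched, GRCm38.p6). The log2 signal of 22626 probe sets was regressed on the colon share (0 to 1) with limma 3.58.1 in R 4.3.3, without a filter, with 2-sided p-values adjusted by Benjamini-Hochberg over all of them (threshold 0.05). The fit was tested on simulated data. All arrays share the same 2 RNA pools, so p-values measure technical spread and any bend from a straight line, not the spread between mice. The number of arrays limits precision.

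The 10 genes and the lists were chosen with earlier results of these data known. Named besides them were, per pathway list, the 3 genes past the threshold with the largest slope and the brightest not past it, the brightest gene of marker lists, and the 5 profiles nearest to Fgb. Alternatives were array medians subtracted, a filter on low signal, a prior variance following mean signal, linear intensities, means of all probe sets of a gene, and leaving out each array. The fit on linear intensities also used a prior variance following mean signal. Serpine2, Cpb2, F2rl1, Gp1ba, Gp6 and Trf were listed but not analysed here. Of the marker lists not counted in the report, 4 smooth muscle genes included 2 that rose and none that fell (Acta2, adjusted p = 0.0411, and from 0.0659 to 0.124 with 1 array left out), and 4 epidermis genes included 3 that fell and none that rose (Krt10, adjusted p = 0.116). Of all genes 14.5% fell and 9.8% rose.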

Additional observations from a re-analysis of the deposited data

How the results depend on the processing

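Of the 10 genes, 5 passed the limma test, and the number rose to 9 (8 falling and F3 rising, Plat not passing) when array medians were subtracted, when probe sets of low mean signal were left out, on linear intensities, and with the mean of all probe sets of a gene. In these fits 24.2%, 28.2%, 22.4% and 28.5% of the features tested passed (probe sets in the first 3, genes in the fourth), against 19.5% of probe sets and 24.3% of genes. On log2 signals, a prior variance that followed mean signal kept the count at 5. Leaving out 1 array gave 2 to 6 of the 10 genes and 8 to 17 of the 39 pathway genes, against 5 and 22. Without whole mouse, the 25% mix or the 50% mix, F10 and Proc were the 2 that passed; without the 75% mix F2 joined them, and without colon Fga, Kng1, F2, F10, Proc and Plg passed. Such fits have fewer residual degrees of freedom, and 6.59%, 13.3%, 8.48%, 6.03% and 4.41% of all probe sets passed in them. The pathway count stayed between 19 and 23 in the 5 alternatives that kept all arrays. The 19 came from the filter on low signal, which kept 32 of the 39 genes. With the mean of all probe sets of a gene all 23 fell, so S100a10 lost its call there. No slope of the 10 genes, or of the genes named by the rule given above, changed sign under any alternative run. Subtracting array medians turned the split over all probe sets, 1953 rising and 2456 falling, into 3148 and 2325. No paired analysis was possible because each mix had 1 array. Colon signals of Fga, Fgg, Kng1 and F10 lay within the spike range, which limits the size of their differences.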
